A study of Mus musculus with 6 samples.

Results

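The intracellular serpins of lymphocytes were followed across IL-12 primed, IL-2 primed and naive CD8+ T cells. The set was defined by name as 6 mouse genes: Serpinb9, Serpinb9b, Serpinb6a, Serpinb6b, Serpinb1a and Serpina3g. Of these, 5 had a probe set that the platform annotation assigns to that symbol alone, 1 probe set each, and 4 of the 5 passed the filter on low values and were tested, against 19938 genes with such a probe set and 11147 tested genes in the whole series. Expression of Serpina3g was not analysed here. The RNA came from spleen CD8+ T cells of female C57BL/6 mice carrying the Pmel-1 transgenic T cell receptor, which recognises the melanoma antigen gp100, so all groups share that transgene. IL-12 primed cells were exposed to gp100 for 4 days and cultured with IL-12 for 6 days. IL-2 primed cells had the same antigen exposure and 6 days of IL-2 (the design text gives 6 days for antigen as well). Naive cells were taken fresh from the spleen and sorted as CD8+ Thy1.1+, while no sort is given for primed cells. Each group had 2 Affymetrix arrays, the ages of the mice and any pooling are not given in the sources used here, and nothing in the labels ties the 2 arrays of a group to different mice or cultures. The p-values then measure only the spread between these arrays, which may be technical. The study set the primed groups side by side to look for genes behind anti-tumour function.

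Serpins are protease inhibitors that work as bait. The protease cuts an exposed loop of the serpin and is then trapped on it in a covalent complex, and the loop sequence sets which proteases are caught. The members of clade B lack a classical secretion signal and stay in the cytosol and nucleus, where in cytotoxic lymphocytes they meet granzymes and cathepsins that have left the lytic granules. Mouse Serpinb9, also called SPI6, inhibits granzyme B, Serpinb9b (SPI-CI) inhibits granzyme M, and Serpinb6b inhibits granzyme A. Serpinb6a (SPI3) is the mouse counterpart of human PI-6, an inhibitor of cathepsin G, and Serpinb1a is a counterpart of the human inhibitor of neutrophil elastase.

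The serpins did not move as a group. Serpinb9 was highest in IL-12 primed cells, whereas Serpinb6a and Serpinb6b were highest in IL-2 primed cells. Serpinb1a stood at 6.51 to 6.67 on the primed arrays and at 6.96 to 6.97 on the naive arrays, and only these naive values placed it among the tested genes. Values are log2 RMA values, so a difference of 1 is a doubling, and every adjusted p comes from limma, fitted to the 6 arrays with 1 mean per group, with the Benjamini-Hochberg method over all 11147 tested genes and a threshold of 0.05. In bulk RNA, a change in the number of cells that express a gene and a change in RNA per cell cannot be told apart.

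**Figure D1:**
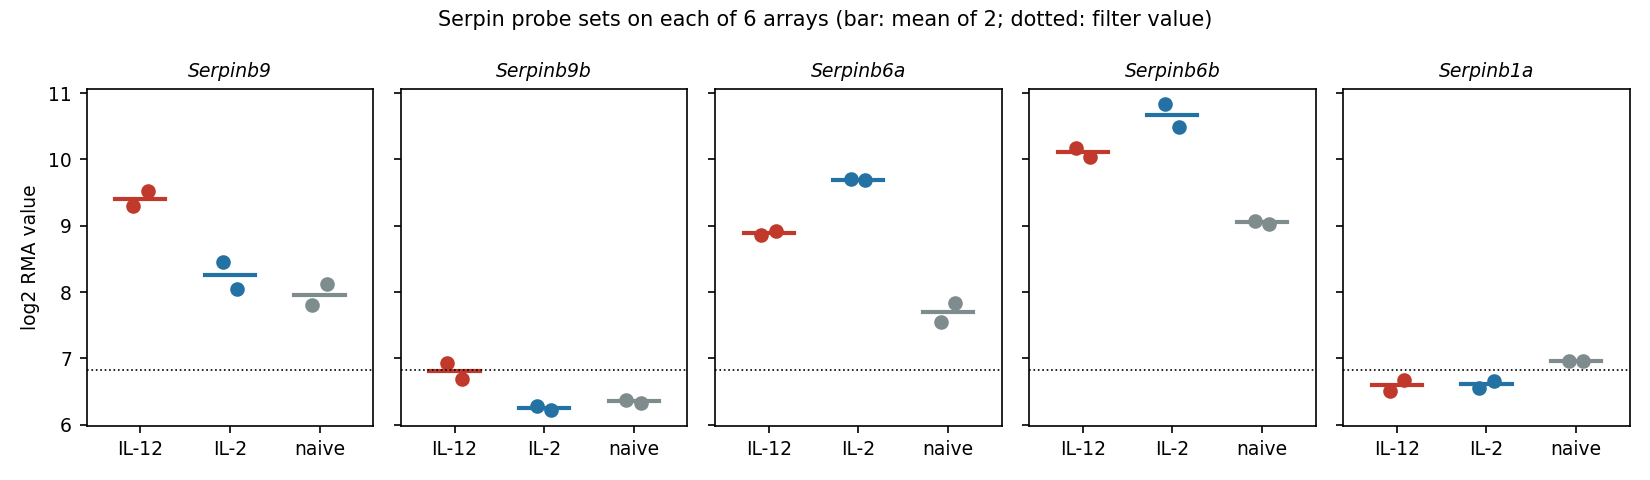
Log2 RMA values of the 5 measured serpins on each array in IL-12, IL-2 and naive cells (points), with the mean of each group of 2 (bars) and the filter value of 6.83 (dotted line). Serpinb9 was highest on the IL-12 arrays, Serpinb6a and Serpinb6b on the IL-2 arrays and Serpinb1a on the naive arrays.

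Serpinb9 (probe set 10404429), the inhibitor of granzyme B, stood at 9.30 and 9.52 in IL-12 cells, 8.46 and 8.04 in IL-2 cells and 7.81 and 8.12 in naive cells. Both IL-12 arrays lay above all 4 others, and the IL-2 and naive arrays overlapped. It was 2.23-fold higher in IL-12 than in IL-2 primed cells (log2 difference 1.16 ± 0.17, SE, n = 2 arrays per group; 95% interval 1.71- to 2.90-fold; limma adjusted p = 0.00202). Of all tested genes, 97.6% differed by less between those groups. Against naive cells the rise in IL-12 cells was 2.73-fold (log2 difference 1.45 ± 0.17; limma adjusted p = 0.000105). In IL-2 cells the log2 difference from naive was 0.29 ± 0.17, with an interval from -0.09 to 0.67, which did not pass the test (limma adjusted p = 0.185). The order was therefore IL-12 above IL-2 and naive cells, and IL-2 and naive cells did not differ beyond their spread.

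Serpinb9b (probe set 10404439), the inhibitor of granzyme M, stood at 6.93 and 6.68 in IL-12 cells, 6.28 and 6.22 in IL-2 cells and 6.38 and 6.33 in naive cells. Only 1 of 6 arrays exceeded the filter value of 6.83, the median of all values in the table, so the gene was not among those tested. Both IL-12 arrays were nevertheless the highest of the 6. With no filter, over 19938 genes, the difference between IL-12 and IL-2 cells was 0.55 ± 0.11 on the log2 scale (limma adjusted p = 0.0132) and that between IL-12 and naive cells 0.45 ± 0.11 (limma adjusted p = 0.0112). IL-2 and naive cells differed by -0.11 ± 0.11 (limma adjusted p = 0.574).

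Serpinb6a (probe set 10408600), the counterpart of human PI-6, stood at 8.86 and 8.93 in IL-12 cells, 9.70 and 9.69 in IL-2 cells and 7.54 and 7.84 in naive cells. No array of any group overlapped another group, and the IL-12 values lay between those of the other groups. It was 1.74-fold lower in IL-12 than in IL-2 cells (log2 difference -0.80 ± 0.12; 95% interval of the fold 1.43 to 2.10; limma adjusted p = 0.00265). Relative to naive cells it rose 2.30-fold in IL-12 cells (limma adjusted p = 4.63e-05) and 4.00-fold in IL-2 cells (limma adjusted p = 3.07e-06). In size, its difference between IL-2 and naive cells exceeded that of 96.8% of tested genes.

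Serpinb6b (probe set 10404422), the mouse inhibitor of granzyme A, followed the same order. It stood at 10.17 and 10.04 in IL-12 cells, 10.83 and 10.49 in IL-2 cells and 9.08 and 9.03 in naive cells, again with no overlap between groups. The rises over naive cells were 2.07-fold in IL-12 cells (limma adjusted p = 0.000164) and 3.05-fold in IL-2 cells (limma adjusted p = 2.02e-05). Between the primed groups it was 1.47-fold lower in IL-12 cells (log2 difference -0.56 ± 0.13; limma adjusted p = 0.0182). Over its alternatives the limma adjusted p ran between 0.0107 and 0.151. It missed the threshold at 0.151 when IL-2 replicate 1 was left out, at 0.0543 when IL-12 replicate 1 was left out and at 0.126 when IL-12 replicate 2 was left out. The 2 IL-2 arrays of this gene differed by more than those of Serpinb6a, with SDs of 0.24 and 0.01.

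Serpinb1a (probe set 10408557), a counterpart of the human elastase inhibitor, stood at 6.51 and 6.67 in IL-12 cells, 6.56 and 6.66 in IL-2 cells and 6.97 and 6.96 in naive cells. The primed groups overlapped and both lay below the naive arrays. The gene passed the filter through its naive arrays alone, so a difference from them was built into its testing. It was 1.29-fold lower in IL-12 than in naive cells (limma adjusted p = 0.0155) and 1.28-fold lower in IL-2 than in naive cells (limma adjusted p = 0.0242). The IL-12 call was lost after quantile normalization (0.0759), after centring arrays on their medians (0.0992) or without IL-12 replicate 1 (0.122), with adjusted p from 0.0137 to 0.122 over its alternatives. The IL-2 call was lost after quantile normalization (0.0939), median centring (0.115) or without IL-2 replicate 1 (0.164) or IL-2 replicate 2 (0.0741), with adjusted p from 0.0216 to 0.164. Between IL-12 and IL-2 cells the log2 difference was -0.02, with an interval from -0.26 to 0.23 (limma adjusted p = 0.934).

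**Figure D2:**
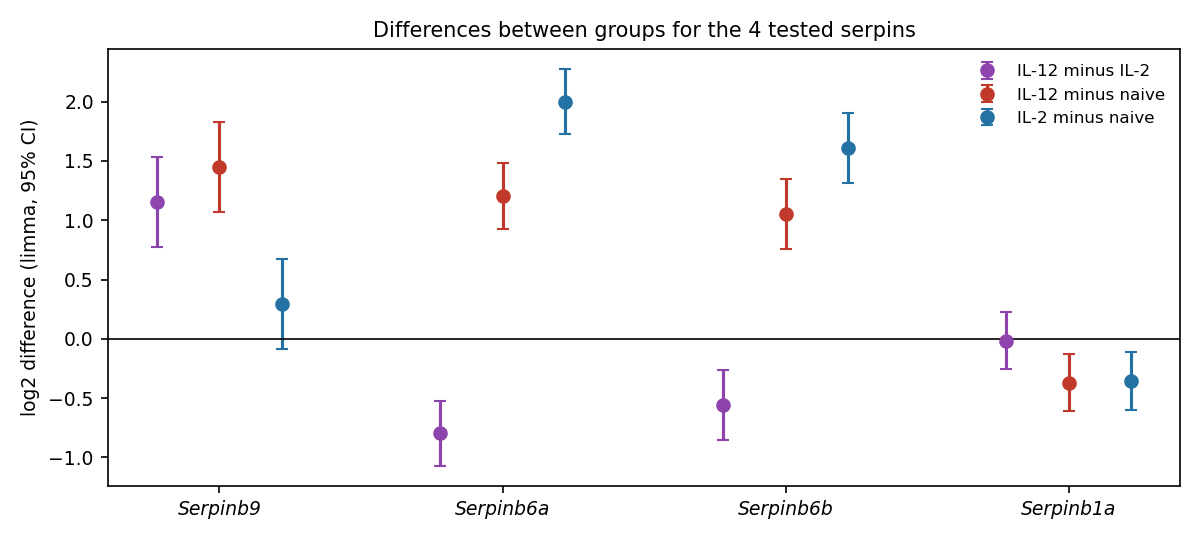
Log2 differences with 95% intervals of the limma fit for the 4 tested serpins, as IL-12 minus IL-2, IL-12 minus naive and IL-2 minus naive. For Serpinb9 the IL-12 minus IL-2 difference was 1.16, while for Serpinb6a and Serpinb6b it was -0.80 and -0.56.

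Counted over the 4 tested serpins, 1 was called higher and 2 lower in IL-12 than in IL-2 cells, where 20.8% of all tested genes were called, 9.82% higher and 11% lower. In IL-12 against naive cells 3 were called higher and 1 lower, where 57.9% of genes were called, 31.2% higher and 26.7% lower. In IL-2 against naive cells 2 were called higher and 1 lower, where 45.7% of genes were called, 25.8% higher and 19.9% lower. After median centring the IL-2 against naive calls split into 3274 higher and 1574 lower genes, against 2873 and 2222 without it. The arrays of IL-12 and IL-2 cells did not overlap for 3 of the 4 serpins, 1 higher and 2 lower, as for 69.5% of all tested genes (36.1% higher, 33.4% lower). Between IL-12 and naive cells all 4 had no overlap, 3 higher and 1 lower, as for 79.2% of genes (42.5% higher, 36.7% lower). Between IL-2 and naive cells 3 of the 4 had none, 2 higher and 1 lower, as for 73.9% of genes (38.7% higher, 35.2% lower). The 1 lower serpin in each comparison with naive cells is Serpinb1a, which was tested because of its naive arrays alone, so these counts are a description. With only 4 tested genes, whether these counts set the serpins apart from all genes was not tested. The comparisons with naive cells share the 2 naive arrays.

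Serpins that differed in opposite directions between IL-12 and IL-2 cells are neighbours in the genome. In the gene order of assembly GRCm38.p6, 16 protein-coding genes run from Serpinb1a to Serpinb6a on chromosome 13, and all 16 are clade B serpins. Of these, 13 had a probe set of 1 symbol and 4 were tested. Serpinb6b lies directly before Serpinb9, and Serpinb9 directly before Serpinb9b, so a gene 1.47-fold lower in IL-12 than in IL-2 cells borders a gene 2.23-fold higher. The Serpinb6b call between the primed groups depended on single arrays. Against naive cells both genes were higher in IL-12 cells, Serpinb6b 2.07-fold and Serpinb9 2.73-fold. Serpinb6a lies at the far end of the row. The next gene after it, Nqo2, which encodes a quinone reductase and was chosen after its values were seen, stood at 8.11 and 8.32 in IL-12 cells, 9.07 and 9.03 in IL-2 cells and 7.52 and 7.54 in naive cells. Nqo2 thus had the order of Serpinb6a, and was lower in IL-12 than in IL-2 cells by a log2 difference of -0.83 ± 0.11 (limma adjusted p = 0.00124). Wrnip1, a replication-associated ATPase gene directly before Serpinb1a, did not pass the test in that comparison (log2 difference -0.10 ± 0.14; limma adjusted p = 0.643).

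**Figure D3:**
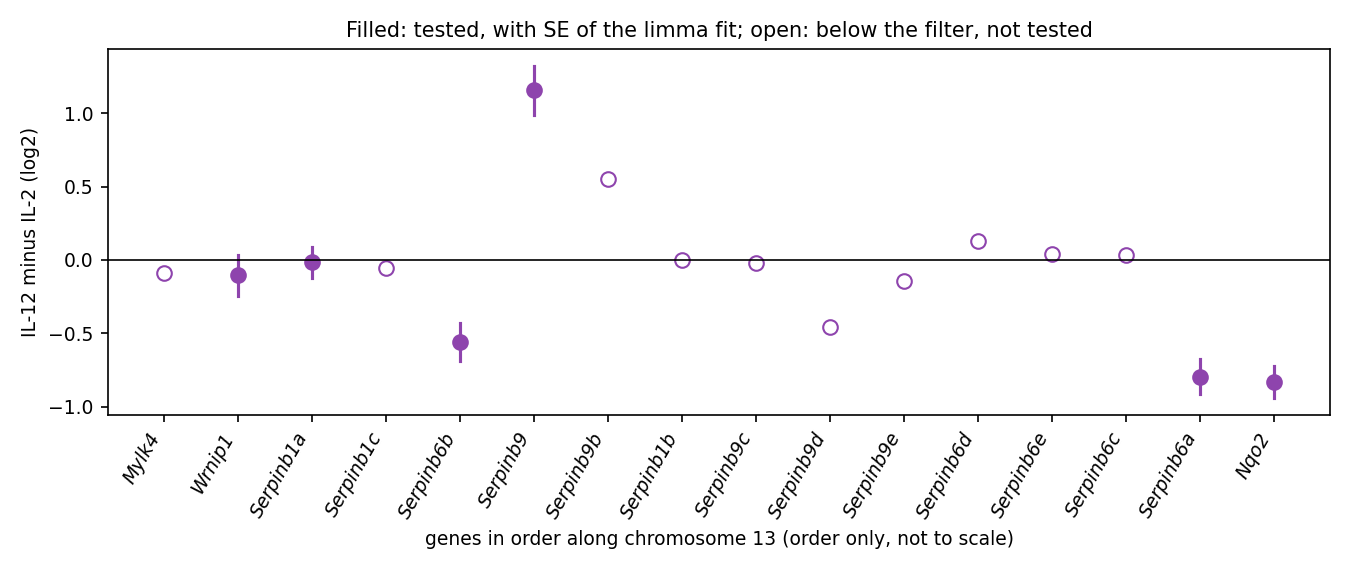
IL-12 minus IL-2 log2 difference of the genes with a probe set of 1 symbol, in their order along chromosome 13, with the limma SE for tested genes (filled) and no error for genes below the filter (open). Serpinb9, at 1.16, stands next to Serpinb6b, at -0.56, and Serpinb6a and Nqo2 at the right end read -0.80 and -0.83.

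The promoters of these genes are shown because adjacent paralogues differed in opposite directions between IL-12 and IL-2 cells. The sequences are from RefSeq on GRCm38.p6 and run from 250 bases before to 50 bases after the annotated start, 5′ to 3′ on the gene's strand. Of the 6 listed serpins 5 matched an entry, and Serpinb6a had 2 annotated starts, of which the upstream one is shown. Capitals mark a match, on either strand, to any of 6 motifs: the STAT-type motif TTCNNNGAA, its longer form with 4 bases of any kind between TTC and GAA, the interferon response core (GAAA, any 2 bases, GAAA), an NF-kappaB-type motif (GGG, any 2 bases, TT, any base, CC), the AP-1-type motif TGANTCA and the T-box-type motif AGGTGTNA.
Serpinb9, chr13:33004291-33004590, plus strand: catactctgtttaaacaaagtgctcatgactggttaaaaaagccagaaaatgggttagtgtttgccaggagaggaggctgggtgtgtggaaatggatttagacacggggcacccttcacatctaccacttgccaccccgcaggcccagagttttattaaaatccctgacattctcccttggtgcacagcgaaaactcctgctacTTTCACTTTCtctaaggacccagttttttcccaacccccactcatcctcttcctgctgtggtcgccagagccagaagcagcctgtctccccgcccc
Serpinb9b, chr13:33027164-33027463, plus strand: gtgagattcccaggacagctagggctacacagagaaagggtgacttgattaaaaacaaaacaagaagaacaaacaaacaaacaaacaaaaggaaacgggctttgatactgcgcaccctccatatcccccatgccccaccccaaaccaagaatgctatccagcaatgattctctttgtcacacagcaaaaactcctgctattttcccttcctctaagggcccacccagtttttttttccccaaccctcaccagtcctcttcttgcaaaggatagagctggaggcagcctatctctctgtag
Serpinb6b, chr13:32965011-32965310, plus strand: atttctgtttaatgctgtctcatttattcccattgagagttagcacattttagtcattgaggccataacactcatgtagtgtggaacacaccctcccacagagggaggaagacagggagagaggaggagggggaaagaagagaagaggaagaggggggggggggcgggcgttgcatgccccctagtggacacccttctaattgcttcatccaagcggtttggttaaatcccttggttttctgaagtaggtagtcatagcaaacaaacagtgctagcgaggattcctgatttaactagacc
Serpinb6a, chr13:34002745-34003044, minus strand: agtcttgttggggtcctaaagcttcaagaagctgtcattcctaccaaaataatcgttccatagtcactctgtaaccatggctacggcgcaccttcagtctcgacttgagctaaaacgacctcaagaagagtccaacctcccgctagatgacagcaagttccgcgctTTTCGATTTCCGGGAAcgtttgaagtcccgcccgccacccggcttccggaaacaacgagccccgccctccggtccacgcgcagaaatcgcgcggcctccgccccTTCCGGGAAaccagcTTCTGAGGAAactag
The Serpinb9 window held 1 match, to the interferon response core on the opposite strand at positions -46 to -37 from the start. Serpinb9b and Serpinb6b held none of the 6 motifs, and neither did the other start of Serpinb6a. The Serpinb6a window shown held 2 matches to TTCNNNGAA, at positions -77 to -69 and 21 to 29, and 1 to the longer form at 36 to 45. It also held 1 to the interferon response core at -84 to -75, which overlaps the first TTCNNNGAA match. Of 32851 promoter windows of the same length, 3.44% held the interferon response core, 8.3% TTCNNNGAA, 6.95% its longer form, 4.79% the NF-kappaB-type motif, 7.81% TGANTCA and 3.03% AGGTGTNA. In a global alignment the Serpinb9 and Serpinb9b windows were identical at 187 of 275 aligned bases (68%). Other pairs of different genes on chromosome 13 were identical at 54.5% to 59.3% of theirs, and the 2 starts of Serpinb6a at 62.2%. The window of Serpina3g, a gene on chromosome 12, is not shown. It held 1 match to TTCNNNGAA at -33 to -25 and 1 to the NF-kappaB-type motif at -85 to -76, and was identical to the others at 53.8% to 58.9% of aligned bases. A match is a description of letters and not a sign of a bound factor.

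The proteases that the serpins inhibit were set beside their inhibitors. Gzmb, which encodes granzyme B, the target of Serpinb9, stood at 12.35 and 12.62 in IL-12 cells, 12.76 and 12.54 in IL-2 cells and 7.93 and 7.17 in naive cells. The primed groups overlapped, both far above naive cells. Gzmb was 30.6-fold higher in IL-12 than in naive cells and 34.3-fold higher in the IL-2 group than in the naive group (limma adjusted p = 3.48e-07 and 3.86e-07). Between IL-12 and IL-2 cells its log2 difference was -0.17 ± 0.22 (limma adjusted p = 0.643), beside the difference of 1.16 ± 0.17 for Serpinb9.

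Gzma, which encodes granzyme A, the target of Serpinb6b, stood at 12.35 and 12.60 in IL-12 cells, 10.48 and 9.57 in IL-2 cells and 8.74 and 7.23 in naive cells. No groups overlapped, and the naive arrays lay far apart. It was 5.44-fold higher in IL-12 than in IL-2 cells (log2 difference 2.44 ± 0.44; limma adjusted p = 0.00587), whereas Serpinb6b was 1.47-fold lower. Against naive cells both genes were higher, Gzma 22.5-fold in IL-12 cells (limma adjusted p = 4e-05) and 4.13-fold in IL-2 cells (0.00523), beside 2.07- and 3.05-fold for Serpinb6b. The Gzma call between IL-12 and IL-2 cells was lost without IL-2 replicate 2, where its log2 difference was 1.99. Gzmm, which encodes granzyme M, the target of Serpinb9b, stood at 7.24 and 7.51 in IL-12 cells, 7.63 and 7.43 in IL-2 cells and 8.05 and 8.13 in naive cells. It was lower in both primed groups than in naive cells, 1.64-fold in IL-12 (limma adjusted p = 0.00129) and 1.47-fold in IL-2 cells (0.00677, lost without IL-2 replicate 2 at 0.0691).

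**Figure D4:**
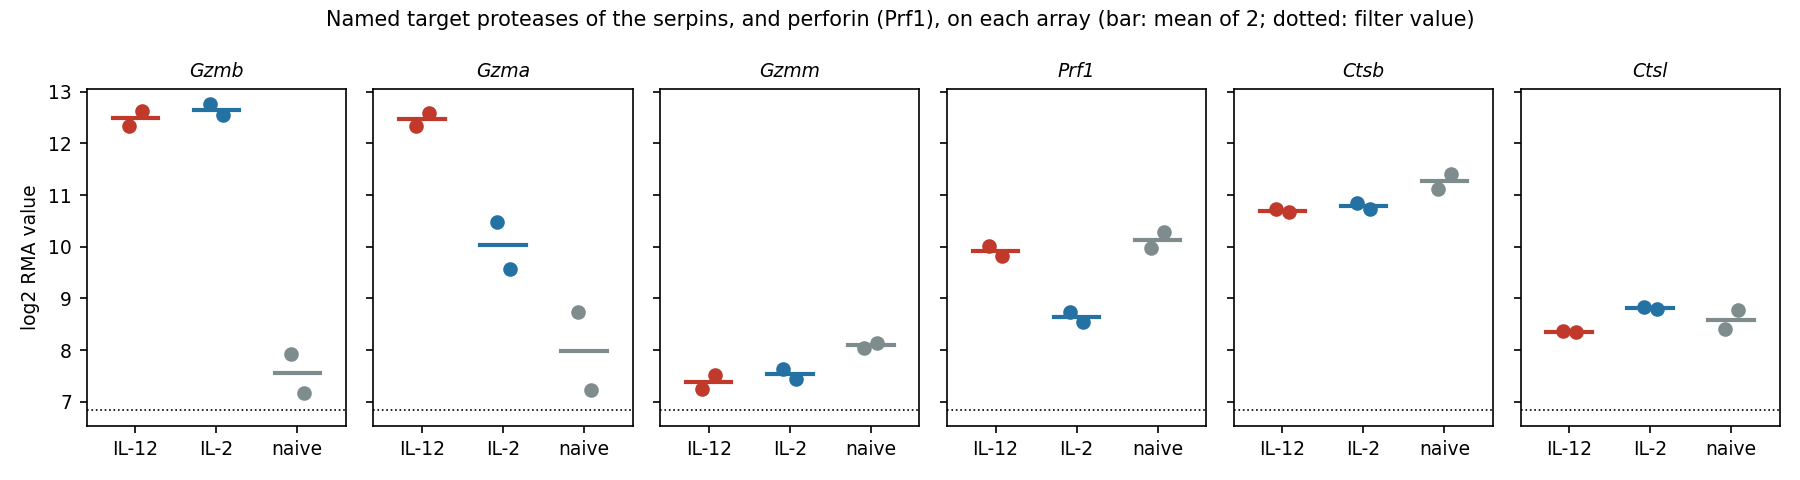
Log2 RMA values of the granzymes Gzmb, Gzma and Gzmm, the cathepsins Ctsb and Ctsl, and perforin (Prf1) on each array. Points are arrays in IL-12, IL-2 and naive cells, bars are group means and the dotted line is the filter value of 6.83. No measured serpin is named here as an inhibitor of Ctsb or Ctsl. The Gzmb points of the primed groups overlap, between 12.35 and 12.76, while Gzma and Prf1 are higher on both IL-12 arrays than on the IL-2 arrays.

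Of the 10 granzyme genes on the array 5 were tested, of which 2, Gzma and Gzmk, were higher by the test in IL-12 than in IL-2 cells and 0 were lower, where 20.8% of all genes were called. The median log2 difference of the 5 was 0.26, beside 0.02 over all tested genes. Gzmk, which encodes granzyme K, rose by 2.88 ± 0.28 (limma adjusted p = 0.000247). Against naive cells 4 granzymes rose and 1 fell in IL-12 cells (median 3.17, against 0.04 for all genes), and 3 rose and 1 fell in IL-2 cells (1.27, against 0.01), where 57.9% and 45.7% of all genes were called. Gzmc rose 2.90-fold in IL-12 and 2.41-fold in IL-2 cells, and Gzmm was the member that fell in both. Gzmc stood at 7.07 and 7.09 in IL-12, 6.96 and 6.68 in IL-2 and 5.52 and 5.57 in naive cells. It passed the filter through primed arrays alone. A difference from naive cells was therefore built into its testing, and it counts among the granzymes that rose. Gzmd, Gzme, Gzmf, Gzmg and Gzmn stayed under the filter, with IL-12 minus IL-2 log2 differences of 0.66, 0.47, 0.46, 0.14 and 0.08. With no filter 5 granzymes were called higher and 0 lower in that comparison, where 11% of all 19938 genes were called.

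Of 14 granule exocytosis genes, all tested, 2 were higher and 1 lower by the test in IL-12 than in IL-2 cells (median log2 difference -0.11, against 0.02 for all genes, of which 20.8% were called). With the 2 compared groups alone the count was 6, with 3 higher and 3 lower. All genes called then rose from 2321 to 3533 of 11147. Prf1, which encodes the pore former perforin, stood at 10.02 and 9.82 in IL-12 cells, 8.74 and 8.55 in IL-2 cells and 9.97 and 10.29 in naive cells. It was 2.41-fold higher in IL-12 than in IL-2 cells (limma adjusted p = 0.000502), 2.79-fold lower in IL-2 than in naive cells (5.43e-05), and did not pass the test between IL-12 and naive cells (0.232). Stx11, which encodes the granule fusion protein syntaxin 11, rose 2.04-fold in IL-12 against IL-2 cells (limma adjusted p = 0.000257). Lyst, which encodes a lysosomal trafficking regulator, was 1.57-fold lower (limma adjusted p = 0.00651), but missed the threshold when IL-2 replicate 1 (0.0662) or IL-12 replicate 2 (0.058) was left out. Against naive cells 5 of the 14 rose and 1 fell in IL-12 cells (median 0.19), and 6 rose and 2 fell in IL-2 cells (0.23), beside 57.9% and 45.7% of all genes called. Rab27a, which encodes a small GTPase of granule docking, rose 2.09-fold in IL-12 and 1.65-fold in IL-2 cells.

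Cathepsins are lysosomal proteases that can also leak to the cytosol. Of 11 tested cathepsin genes 1 was higher and 3 were lower by the test in IL-12 than in IL-2 cells, with a median log2 difference of -0.09 against 0.02 for all genes, of which 20.8% were called. Ctsh rose by 0.95 ± 0.12 (limma adjusted p = 0.000994), while Ctss (-0.84 ± 0.19; 0.0157), Ctso (-0.49 ± 0.12; 0.0199) and Ctsl (-0.46 ± 0.13; 0.0357) fell. The calls of Ctss and Ctsl were each lost without either IL-12 or either IL-2 array, with adjusted p of up to 0.12 and 0.172, and that of Ctso without IL-2 replicate 2 (0.189) or either IL-12 array (0.119 and 0.0712). The Ctsl call was also lost after quantile normalization (0.0931) and median centring (0.0758). Ctsb, which encodes cathepsin B, stood at 10.73 and 10.67 in IL-12 cells, 10.84 and 10.73 in IL-2 cells and 11.12 and 11.42 in naive cells. It was 1.49-fold lower in IL-12 than in naive cells (limma adjusted p = 0.00368) and 1.40-fold lower in IL-2 than in naive cells (0.0115). The call in IL-2 cells was lost without IL-2 replicate 2 (0.0902) and after median centring (0.0561). Against naive cells 2 cathepsins rose and 5 fell in IL-12 cells (median -0.23), and 1 rose and 5 fell in IL-2 cells (0.07), with 57.9% and 45.7% of all genes called. Among those that fell, Ctsh read 5.84 and 5.78 in IL-2 cells, under the filter value, so its fall there was built into its testing. The 7 calls in IL-12 cells became 4 without IL-12 replicate 1, and the 6 in IL-2 cells became 3 without IL-2 replicate 2. None of 5 myeloid serine protease genes, among them Ctsg and Elane, the enzymes met by Serpinb6a and Serpinb1a counterparts in neutrophils, passed the filter.

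Among the 10 tested substrates of granzyme B and caspases, 3 were higher and 0 lower by the test in IL-12 than in IL-2 cells (median log2 difference 0.19, against 0.02), where 20.8% of all genes were called. Casp1, which encodes the inflammatory caspase 1, rose by 0.92 ± 0.13 (limma adjusted p = 0.00167). Parp1 rose by 0.49 ± 0.11 (0.0172) and Bid, a death-promoting BCL2 family gene, by 0.37 ± 0.11 (0.0401), and both calls were lost without any 1 of the 4 primed arrays (adjusted p of 0.0574 to 0.158 and 0.131 to 0.204). The Bid call was also lost with no filter (0.0541) and after median centring (0.0645). Against naive cells 4 of the 10 rose and 2 fell in IL-12 cells, and 2 rose and 2 fell in IL-2 cells (median 0.09 in both), while 57.9% and 45.7% of all genes were called. Casp1, which rose in both, passed the filter through its primed arrays alone (8.26 to 9.35, against 5.80 and 5.60 in naive cells). A difference from naive cells was therefore built into its testing. In IL-12 cells the call of Casp6 was lost without naive replicate 1 (0.0916) and without either IL-12 array (0.101 and 0.0519). That of Casp9 was lost without any 1 array other than naive replicate 1 (0.0777 to 0.205).

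Other protease inhibitors also differed between the groups. Of 10 tested cystatins and other inhibitors, 1 was higher and 1 lower by the test in IL-12 than in IL-2 cells (median log2 difference -0.03, against 0.02), against 20.8% of all genes called. Timp3, an inhibitor of matrix metalloproteinases, rose 5.19-fold (limma adjusted p = 2.57e-05) and the related Timp2 was 3.43-fold lower (limma adjusted p = 0.00047). Timp3 passed the filter through its IL-12 arrays alone (7.87 and 7.78, against 5.27 to 5.68 on the others). A difference from the IL-2 and naive groups was therefore built into its testing, and it counts among the genes higher than in naive cells. Against naive cells 3 of the 10 rose and 2 fell in IL-12 cells (median 0.05), and 1 rose and 2 fell in IL-2 cells (-0.00497), where the shares of all genes called were 57.9% and 45.7%. The 3 calls in IL-2 cells became 1 without IL-2 replicate 1 and 6 without naive replicate 2. The cathepsin inhibitor Cstb rose 1.61-fold in IL-12 and 1.55-fold in IL-2 cells (limma adjusted p = 0.00329 and 0.00727, the second lost without IL-2 replicate 1 at 0.0676). Of the other serpins, 43 had a probe set of 1 symbol and 2 were tested. Serpini1, which encodes neuroserpin, was 1.77-fold lower in IL-12 than in IL-2 cells (limma adjusted p = 0.00351) and 1.69-fold lower in IL-12 than in naive cells (0.0012). It passed the filter through its IL-2 and naive arrays alone (7.15 to 7.46, against 6.58 and 6.39 in IL-12 cells). A lower value in IL-12 cells was therefore built into its testing. Serpinf2 passed no test, except between IL-2 and naive cells when naive replicate 2 was left out (limma adjusted p = 0.0182, against 0.0919 with it). None of the 19 other clade B serpins with such a probe set passed the filter. The 3 probe sets that carry the symbols Serpinb9d, Serpinb9e, Serpinb9f and Serpinb9g together read between 5.17 and 6.05 on all arrays.

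The profiles nearest to each tested serpin were found by the Euclidean distance over the 6 arrays after centring each gene on its mean, as a description with no test. Nearest to Serpinb9 were Shmt2, a mitochondrial serine pathway enzyme gene (distance 0.277 log2 units), Ifrd1 (0.3) and the BMP receptor gene Bmpr1a (0.345). Nearest to Serpinb6a were Prrg4 (0.287), St14, which encodes the membrane serine protease matriptase (0.311), and Havcr2, which encodes the inhibitory receptor TIM-3 (0.353). Nearest to Serpinb6b were Trib1 (0.273), the phosphatase gene Ptprs (0.292) and the chemokine receptor gene Cxcr3 (0.295). Serpinb1a, which varied little, lay nearest to Rpl26, Spns2 and Saysd1 (0.0567 to 0.0879). Serpinb6a and Serpinb6b lay 0.535 from each other, and Serpinb9 lay 2.15 from Serpinb6a and 1.83 from Serpinb6b.

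The identity of the cells was checked with marker genes. All 10 measured CD8 T cell markers exceeded the filter value on all arrays, with a mean over the list of 11.88 to 11.92 in IL-12, 12.22 to 12.26 in IL-2 and 12.20 to 12.31 in naive cells. The 10 measured B cell markers averaged 7.44 to 7.49 in IL-12, 6.55 to 6.56 in IL-2 and 8.79 to 8.95 in naive cells. Of the CD8 markers 5 were lower by the test in IL-12 than in IL-2 cells, where 11% of all genes were. The calls of Cd8b1, Cd3d, Cd2 and Thy1 were lost without any 1 of the 4 primed arrays, and that of Cd5 was kept. Of the B cell markers 8 were higher by the test in IL-12 than in IL-2 cells, where 9.82% of all genes were. The calls of Pax5 and Blk rested on all 4 primed arrays. All 10 markers fell in each primed group against naive cells, as did 26.7% of genes in IL-12 and 19.9% in IL-2 cells. On both arrays of a group, 10 exceeded the filter value in naive, 6 in IL-12 and 2 in IL-2 cells. Some may thus have passed the filter through their naive arrays alone. Serpinb9 was also higher in IL-12 than in IL-2 cells. Between IL-2 and naive cells its log2 difference was 0.29 ± 0.17, which did not pass the test, and all 10 B cell markers were lower in IL-2 cells. The part of these markers in the Serpinb9 difference was not tested. The 11 monocyte, macrophage and dendritic cell markers averaged 6.45 in IL-12, 6.13 to 6.32 in IL-2 and 7.57 to 7.79 in naive cells. Of the 8 tested, 6 were lower and only Itgam was higher by the test in IL-12 than in naive cells (26.7% and 31.2% of all genes). Between IL-12 and IL-2 cells 2 were higher, Itgam among them, and 0 lower (9.82% and 11% of all genes). Itgam, which encodes an integrin of myeloid cells, stood at 7.41 and 7.63 in IL-12 cells, 6.55 and 6.59 in IL-2 cells and 6.19 and 6.44 in naive cells. It was higher by the test in IL-12 than in IL-2 cells (log2 difference 0.95 ± 0.13; limma adjusted p = 0.00141) and than in naive cells (1.20 ± 0.13; 6.28e-05), but not between IL-2 and naive cells (0.26 ± 0.13; 0.133, but 0.0343 without naive replicate 2), the order of Serpinb9. Itgam passed the filter through its IL-12 arrays alone, so a difference from the other groups was built into its testing. The granulocyte marker Ly6g, below the filter, stood at 6.57 and 6.61 in IL-12 cells, 5.63 and 5.48 in IL-2 cells and 5.52 and 5.67 in naive cells. The part of Itgam and Ly6g in the Serpinb9 difference was not tested. Serpinb1a was highest in naive cells together with the B cell and myeloid markers, and their part in that difference was not tested. The 11 neutrophil and mast cell markers averaged 5.67 to 5.82 on all arrays and none exceeded the filter value on both arrays of any group. The mast cell marker Cpa3 alone read 5.50 and 5.53 in IL-12 cells, 7.72 and 6.65 in IL-2 cells and 5.05 and 5.22 in naive cells, highest in IL-2 cells as Serpinb6a and Serpinb6b were, and its part in their differences was not tested. The 7 natural killer cell markers averaged 5.49 to 5.60 in IL-12, 5.45 to 5.55 in IL-2 and 6.12 to 6.21 in naive cells. The linear values of the 4 CD4 T cell markers summed to 693 to 735 in IL-12, 787 to 834 in IL-2 and 432 to 433 in naive cells. These sums had the order of Serpinb6a and Serpinb6b, but that order depended on the measure. By the mean log2 value, used for the other lists, the IL-12 and IL-2 arrays overlapped, and both groups lay above the naive arrays. Of the 2 CD4 markers tested, 0 were called between IL-12 and IL-2 cells. Cd4 itself stayed below the filter, and the part of these markers was not tested. Log2 array values have no 0, so no marker can be called absent.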

How the data were processed

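RNA was hybridised to 1 Affymetrix array per sample. The authors deposited 35556 values per array on a log2 scale, 1 per probe set, and the submitters' processing notes name RMA. The log2 scale was read from the values (2.51 to 14.72). RMA version, settings and genome build are not given in the sources used here. Array medians were 6.78 to 6.81 in primed and 6.85 to 6.95 in naive cells. No value column lacked a sample (0).

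Probe sets with 1 symbol (21789) were named through the platform annotation, with symbols updated through gene identifiers of GRCm38.p6. Each gene was its probe set with the highest mean, tested where 2 of 6 arrays exceeded 6.83, the 50th percentile of all values. A single limma model (version 3.58.1, R 4.3.3) covered the 6 arrays (1 mean per group, 3 residual and 5.62 prior degrees of freedom), two-sided. The fit was tested on simulated data. Promoters were searched and aligned with Python 3.11.15 and Biopython 1.88. The members and lists were chosen with earlier results of these data known. Named genes were the serpins, the proteases Gzmb, Gzma, Gzmm, Ctsb and Ctsl, and Prf1. In each comparison up to 4 members of each list with the smallest adjusted p were also named. So were all granzymes and the 3 nearest profiles of each tested serpin. Nqo2, Wrnip1, Serpinb5, Serpinf1, Casp9 and the single cell type markers were named after their values were seen. Alternatives changed the filter, probe set choice, normalization, variance model, arrays in the fit and replicate block. The replicate numbers did not pair the arrays. The number of arrays limits the precision.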

Additional observations from a re-analysis of the deposited data

How the results depend on the processing

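The genes called between IL-12 and IL-2 cells were 2321, but 3533 with the compared groups alone. They ranged from 737 to 3533 when 1 array was left out: 3533 without naive replicate 1 or 2, 954 without IL-2 replicate 1, 737 without IL-2 replicate 2, 1219 without IL-12 replicate 1 and 1031 without IL-12 replicate 2. Without 1 array the calls between IL-2 and naive cells ranged from 3341 (without IL-2 replicate 1) to 5786, against 5095. With median centring the median difference of tested genes was 0.11 for IL-2 against naive cells (0.01 without it) and 0.16 for IL-12 against naive cells (0.04 without it). The serpins called numbered 2 to 4 between IL-12 and IL-2, 3 to 5 between IL-12 and naive and 2 to 3 between IL-2 and naive cells over the alternatives run. Differences of Serpinb9 and Serpinb6a kept their direction and their side of the threshold in the 15 alternatives of each comparison. Not all 15 were separate checks. Each serpin had 1 probe set, so the alternatives of probe set choice could not change its values. Between IL-12 and IL-2 cells, leaving out either naive array gave the same fit as the compared groups alone. Serpinb9 ranged from 0.95 to 1.37 and Serpinb6a from -0.83 to -0.76 between IL-12 and IL-2 cells. The Serpinb9b difference between IL-2 and naive cells was -0.11, and 0.000219 after quantile normalization and -0.00626 after median centring. A fit with the replicate number as a block called 2414, 5128 and 6471 genes between IL-12 and IL-2, IL-2 and naive, and IL-12 and naive cells and changed no call of a serpin. Deviations of same-numbered arrays correlated at 0.15 between IL-12 and IL-2, -0.02 between IL-12 and naive and 0.02 between IL-2 and naive cells, so the numbers were not taken to pair the arrays. Serpinb1a could not be tested with a filter at the 75th percentile. With 2 arrays per group, values near the filter, such as those of Serpinb9b and Serpinb1a, are the least certain.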

Other observations

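Below the filter, Serpinb5, which encodes the epithelial serpin maspin, stood out among the clade B serpins after its values were seen. Its log2 values were 7.30 and 6.60 in IL-12 cells, 4.57 and 4.60 in IL-2 cells, and 4.61 and 4.47 in naive cells. Both IL-12 arrays lay above the 4 others. With no filter the log2 difference was 2.36 ± 0.19 between IL-12 and IL-2 cells (n = 2 arrays per group; limma adjusted p = 8.93e-05) and 2.41 ± 0.19 between IL-12 and naive cells (9.31e-06), while IL-2 and naive cells differed by 0.05 ± 0.19 (0.898). Of the 41 serpins below the filter outside the 6 listed genes, 2 were called with no filter between IL-12 and IL-2 cells, where 11% of all 19938 genes were called, and the same 2 between IL-12 and naive cells, where 35.1% were called. The other was Serpinf1, which encodes the secreted factor PEDF, which was higher in IL-12 than in IL-2 cells by 0.50 ± 0.13 (limma adjusted p = 0.0345).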
